A study of Mus musculus with 12 samples.

Results

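RNA levels of 10 genes for calcium/calmodulin-dependent protein kinases (CaM kinases) and class IIa histone deacetylases are described in C2C12 muscle tissues. They are the Camk2 genes Camk2a, Camk2b, Camk2d and Camk2g, the kinases Camk1 and Camk4, the kinase kinases Camkk1 and Camkk2, and the deacetylases Hdac4 and Hdac5. The genes were chosen by name, and each matched 1 of the 78298 genes in the deposited tables. C2C12 is an established line of mouse myoblasts. One group, WT, is the wild-type line with 6 libraries. The other, RGECO, is a C2C12 line with a genetically encoded calcium indicator, also with 6 libraries, of which replicate 4 held 825 counts, none of them in these genes, and is left out. Both lines were cultured on methacrylated gelatin for 14 days of differentiation. Both received horse serum (10%), IGF-1 (50 ng/ml) and aminocaproic acid, which slows fibrin breakdown (1 mg/ml). What drives the indicator, and whether the RGECO line is 1 clone, is not given in the sources used here.

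CaM kinases turn a rise in cytosolic calcium into phosphorylation. Calcium-loaded calmodulin opens the autoinhibited enzyme, and CaMKII, the multimer made from the Camk2 genes, then phosphorylates its own regulatory threonine and stays active after calcium falls, while CaMK1 and CaMK4 are switched on by the kinase kinases. In muscle these kinases phosphorylate class IIa deacetylases, which are then bound by 14-3-3 proteins and leave the nucleus, so that MEF2 factors are freed from repression.

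Phosphorylation sites of this pathway can be compared in 3 of the Camk2 genes and in the class IIa genes. Sites of the other kinases, Camk2a included, are not shown. The first set shows the coding stretch around the self-phosphorylated threonine of CaMKII, from GENCODE M21 transcripts, read 5′ to 3′ with the threonine codon in capitals.
Camk2b: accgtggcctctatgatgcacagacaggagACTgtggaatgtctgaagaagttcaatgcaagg
Camk2d: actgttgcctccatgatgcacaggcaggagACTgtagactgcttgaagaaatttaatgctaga
Camk2g: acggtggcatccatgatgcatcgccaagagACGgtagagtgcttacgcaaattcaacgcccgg
Over these 63 bases Camk2b and Camk2d were identical at 51, Camk2d and Camk2g at 45 and Camk2b and Camk2g at 43. The second set shows the stretch around a serine that 14-3-3 proteins bind once it is phosphorylated, in all 4 class IIa genes, with the serine codon in capitals.
Hdac4: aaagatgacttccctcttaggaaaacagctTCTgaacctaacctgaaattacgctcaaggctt
Hdac5: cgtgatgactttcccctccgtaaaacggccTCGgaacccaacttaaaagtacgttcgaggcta
Hdac7: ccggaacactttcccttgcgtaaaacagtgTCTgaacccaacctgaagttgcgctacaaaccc
Hdac9: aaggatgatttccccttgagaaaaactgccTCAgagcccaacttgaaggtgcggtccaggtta
Hdac4 and Hdac5 were identical at 45 of 63 bases here, and Hdac7 at 41 with each of the other genes. Despite this likeness no word of 50 bases, the length of a read, was shared between coding transcripts of any 2 of these genes. Words shared with any other annotated gene were 0.331% of those of Camk2a and 1.02% of those of Hdac5, and none in the other members. On GRCm38, by the same annotation, Camk2d lies at chr3:126596302-126846326 on the plus strand. Camk2b (chr11:5969644-6066362), Camk2g (chr14:20734875-20794088), Hdac4 (chr1:91928779-92195699) and Hdac5 (chr11:102194432-102230166) lie on the minus strand, and the stretches shown are coding exon sequence.

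The WT libraries held 9370322 to 11744314 counts and the 5 RGECO libraries 5881622 to 11926220. All 10 skeletal muscle markers were detected, and summed to 10619 to 12683 TPM (a length-corrected share of transcripts) in WT and 13144 to 17803 TPM in RGECO. Acta1, at 6527 to 7929 TPM in WT and 8160 to 12176 TPM in RGECO, made up most of that sum, while Myh8 (129 to 192 against 65.4 to 95.5 TPM) and Actn2 (188 to 249 against 124 to 172 TPM) were lower in every RGECO library than in any WT library. Of 7 neuronal markers, looked at because Camk2a and Camk2b are abundant in brain, Rbfox3, Snap25 and Gad1 had no count in any of the 11 libraries. The summed TPM of the neuronal list was 25.2 to 38.4 in WT and 48.8 to 64.2 in RGECO. Most of it came from Map2 (11.8 to 18.7 against 24.5 to 31.3 TPM) and Tubb3 (8.40 to 17.6 against 16.1 to 35.2 TPM). Slc17a7 and Syt1 were detected at low levels. The 6 fibroblast markers summed to 860 to 1343 TPM in WT and 1394 to 1916 TPM in RGECO. Here Ly6a (369 to 718 against 957 to 1499 TPM) and Dcn (73.2 to 194 against 206 to 335 TPM) were higher in RGECO, Col1a1 (330 to 604 against 73.7 to 163 TPM) and Pdgfrb (16.6 to 24.4 against 5.70 to 8.45 TPM) were lower, and Thy1 was at or near 0. These sums did not overlap between the lines, and their part in the results below was not tested. In bulk tissue, fewer cells of a type and less RNA per cell cannot be told apart.

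Of the 10 genes 9 were expressed in every library, in the same order of mean TPM in both lines. Levels are compared between genes in TPM, which is corrected for transcript length. Camk2g, the gamma subunit, was highest, with 78.2, 105 and 112 TPM as the lowest, median and highest of the WT libraries and 121, 102, 144, 84.1 and 118 TPM in RGECO replicates 1, 2, 3, 5 and 6. The deacetylase gene Hdac5 came next by its mean, at 89.1 ± 17.2 TPM (SD, n = 6) in WT libraries, against 84.9 ± 16.5 TPM (SD, n = 5) in RGECO. Camk2g was above Hdac5 in 5 of 6 WT and 4 of 5 RGECO libraries, and their ranges overlapped. Camk2d, the delta subunit, followed at 63.2 ± 17.2 TPM (SD, n = 6) in WT against 74.3 ± 10.5 TPM (SD, n = 5). Its WT libraries overlapped those of Camk2a, at 61.5 ± 5.64 TPM (SD, n = 6), and it was the higher of the pair in 3 of 6. The Camk2a gene is known for the neuronal alpha subunit, and in muscle it also gives the anchoring protein alpha-KAP, which lacks the kinase domain. Values per gene do not separate these products. Camk2b ranged from 43.7 to 51.2 TPM in WT, below every WT value of Camk2a, and from 37.6 to 61.7 TPM in RGECO, where the ranges of these genes overlapped.

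**Figure D1:**
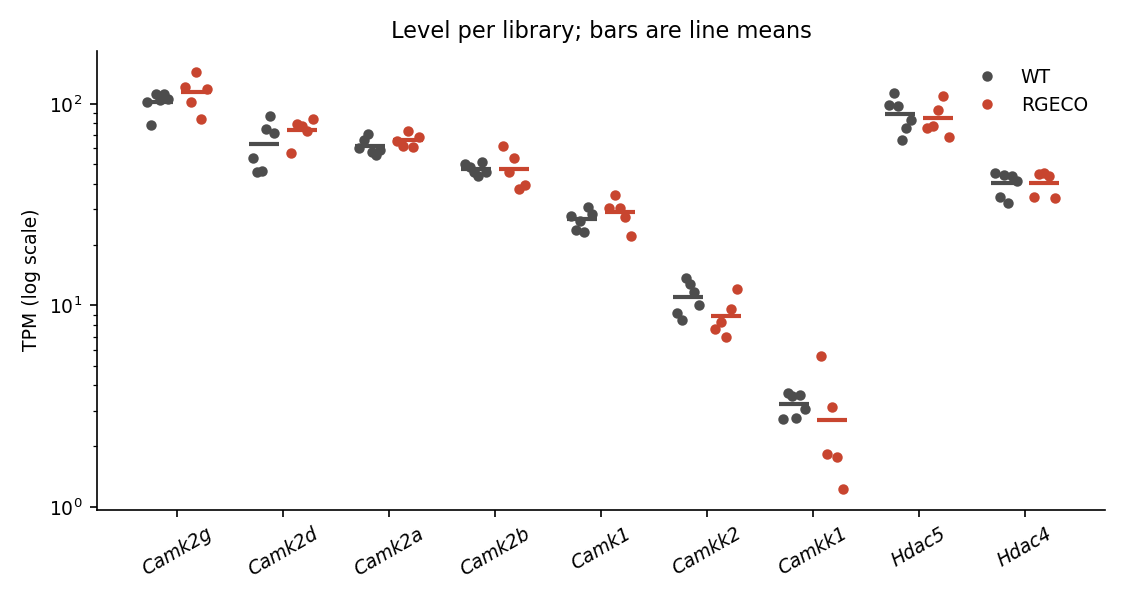
TPM on a log axis for 9 genes, with 1 point per library (6 WT, 5 RGECO) and a bar at each line's mean. Camk2g is highest and Camkk1 lowest in both lines, and the points of the lines overlap for every gene shown.

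Hdac4, at 40.2 ± 5.67 TPM (SD, n = 6) in WT libraries, against 40.5 ± 5.74 TPM (SD, n = 5) in RGECO, was below Hdac5 in all 11 libraries. Its share of the summed Hdac4 and Hdac5 TPM was 31.4% ± 4.44 (SD, n = 6) in WT libraries, against 32.5% ± 2.98 (SD, n = 5) in RGECO. Camk1 was at 26.7 ± 2.97 TPM (SD, n = 6) in WT against 29.1 ± 4.75 TPM (SD, n = 5). The kinase kinases that act on it were the lowest of the 9. Camkk2 was at 10.9 ± 2.10 TPM (SD, n = 6) in WT against 8.88 ± 1.99 TPM (SD, n = 5), and Camkk1 at 3.22 ± 0.427 TPM (SD, n = 6) in WT against 2.70 ± 1.75 TPM (SD, n = 5). From Camk1 down, no library of a gene reached the range of the next gene in either line. Camk4, the CaM kinase found in neurons and lymphocytes, had 2 counts in WT as a whole and 3 in RGECO. Its counts did not pass the filter on low values, and no fold change is given because both lines are at or under the limit of 3 counts.

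With the line alone in the model, no difference was detected in the 9 genes that could be tested. Beside a share of Malat1 or of mitochondrially encoded counts, Hdac5 was called lower in RGECO, and beside the mitochondrial share Camk2d was called higher, as described below. In the quasi-likelihood test of edgeR, adjusted by Benjamini-Hochberg over 13318 genes, 0 of 9 passed adjusted p 0.05, against 8.35% of all genes. An unadjusted p under 0.05 was found in 0 of 9, against 2941 of the 13318 genes. DESeq2 also called 0 of 9, against 1590 of 15730 genes, and gave 0 of 9 an unadjusted p under 0.05. Limma on log2(TPM + 1) called 0 of 9, against 605 of 13318 genes. The ranges of the lines overlapped in all 9, while 7.97% of all genes tested had ranges that did not. For 8 of the 9 the 95% interval of the log2 fold change stayed within a 2-fold change up or down, which was so for 74.0% of all genes. The median log2 fold change was 0.0031 for the 9 and -0.01 for all genes.

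The narrowest intervals were those of Camk2g and Camk2a. Camk2g had 185, 192 and 214 CPM (counts scaled to library size, with TMM factors) as the lowest, median and highest WT libraries and 215, 189, 239, 200 and 206 CPM in RGECO replicates 1, 2, 3, 5 and 6. RGECO replicates 1 and 3 were above every WT library and the others were within the WT range, with a log2 fold change of 0.12 ± 0.09 (SE, 95% interval -0.07 to 0.31, adjusted p = 0.497). Camk2a ranged from 109 to 140 CPM in WT and from 118 to 129 CPM in RGECO, so the RGECO libraries lay inside the WT range, and the log2 fold change was 0.0065 ± 0.10 (SE, 95% interval -0.21 to 0.22, adjusted p = 0.983). Camk2b stood at -0.0098 ± 0.14 (SE, 95% interval -0.32 to 0.30) and Camk2d at 0.11 ± 0.15 (SE, 95% interval -0.20 to 0.42; adjusted p = 0.982 and 0.734). Hdac4 stood at 0.04 ± 0.11 (SE, 95% interval -0.19 to 0.26) and Hdac5 at -0.14 ± 0.17 (SE, 95% interval -0.51 to 0.23; adjusted p = 0.891 and 0.714). The Hdac5 value came to -0.00059 without WT replicate 2, its highest library.

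Among the kinases upstream, Camkk1 was the least tightly bounded. Camk1 differed by 0.0031 ± 0.14 (SE, 95% interval -0.29 to 0.29) and Camkk2 by -0.15 ± 0.16 (SE, 95% interval -0.49 to 0.18) on the log2 scale (adjusted p = 0.993 and 0.635). Camkk1 had 7.28, 8.47 and 12.5 CPM as the lowest, median and highest WT libraries and 12.9, 4.72, 8.16, 4.90 and 3.18 CPM in RGECO replicates 1, 2, 3, 5 and 6. In 3 of the 5 RGECO libraries it was below every WT library and in RGECO replicate 1 above every one, and the log2 fold change was -0.40 ± 0.31 (SE, 95% interval -1.05 to 0.26, adjusted p = 0.507). Without RGECO replicate 1 it was -0.76 (adjusted p = 0.118), and -1.10 (adjusted p = 0.00326) with the Malat1 share described below also in the fit. A 2-fold lower level of Camkk1 in RGECO is thus within the interval. Its libraries held 28 to 112 counts of the gene.

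**Figure D2:**
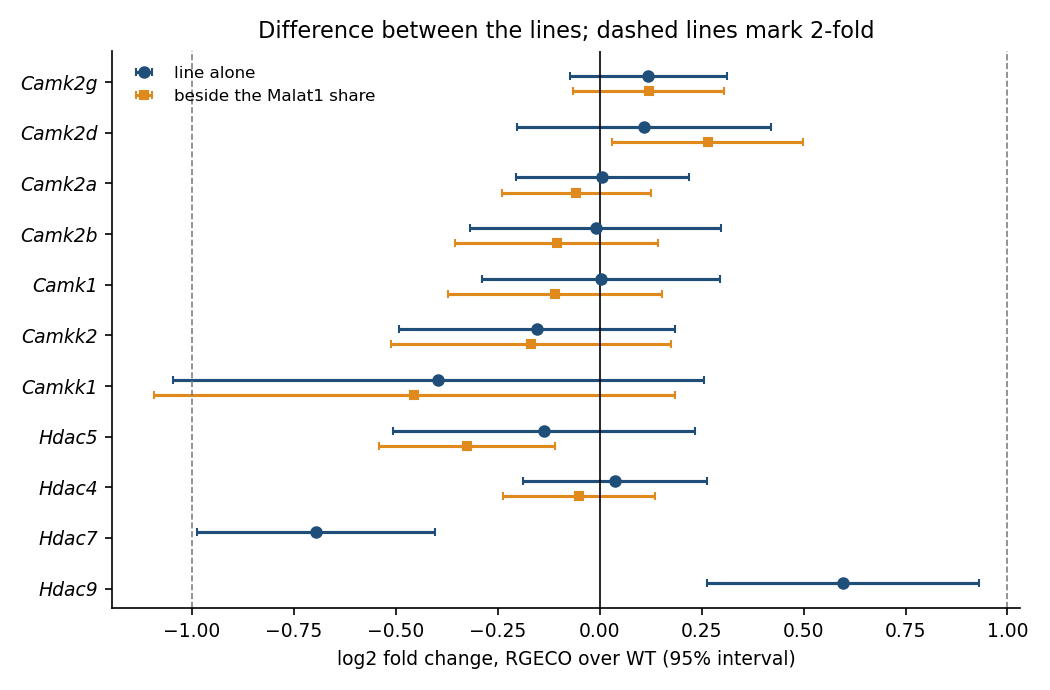
Log2 fold change of RGECO over WT with its 95% interval, for the line alone (circles) and beside the Malat1 share of counts (squares, not drawn for Hdac7 and Hdac9). Of the 9 genes chosen, Camkk1 alone has a circle's interval that crosses the dashed 2-fold line, while Hdac7 and Hdac9 lie on opposite sides of 0.

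The make-up of CaMKII transcripts differed between the lines by less than the spread of libraries. Together the 4 Camk2 genes summed to 275 ± 22.1 TPM (SD, n = 6) in WT libraries, against 302 ± 33.8 TPM (SD, n = 5) in RGECO. Camk2g took 37.2% ± 2.60 (SD, n = 6) in WT against 37.4% ± 3.39 (SD, n = 5) of it, Camk2a 22.6% ± 3.53 and 22.0% ± 1.16, Camk2d 22.8% ± 4.70 and 24.8% ± 4.18, and Camk2b 17.4% ± 1.85 and 15.8% ± 2.77, with ranges that overlapped in each case. The share of Camk2d varied most, from 16.9% to 28.5% among WT libraries. These shares sum to 100% and are given as a description, with no test.

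**Figure D3:**
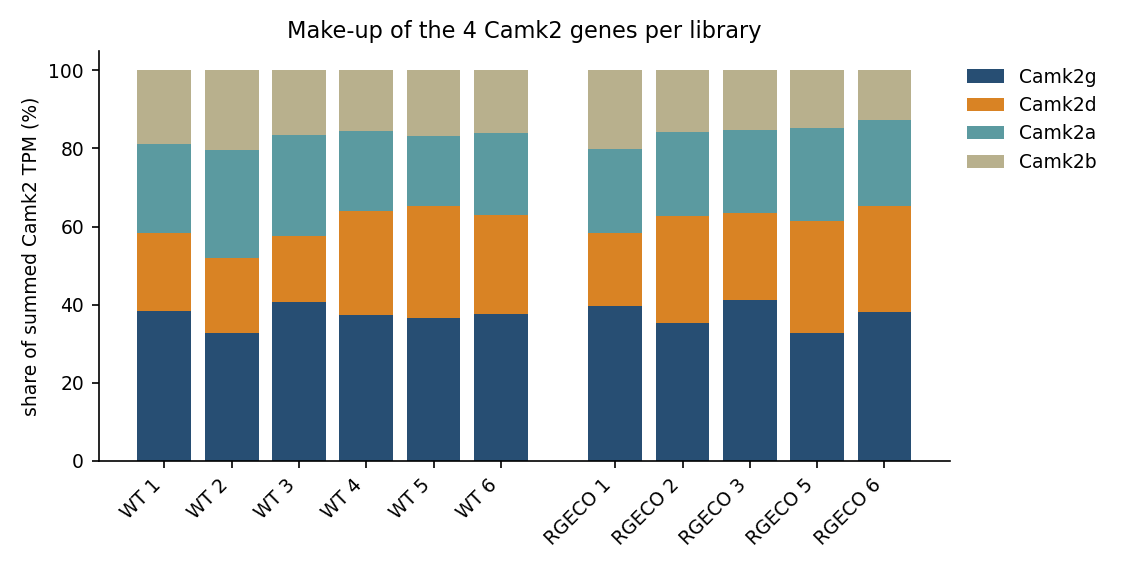
Stacked bars of the share of each Camk2 gene in the summed TPM of the 4 genes, 1 bar per library. Camk2g takes the largest share in all 11 libraries, and the Camk2d share differs more among libraries of a line than between the lines.

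Estimated counts divided by TPM are proportional to the mean length, as modelled in that library, of the transcripts to which a gene's reads were assigned. This ratio was taken to follow the mix of isoforms apart from the level, and other effects of a library on it were not tested. The ratio was centred in each library on the median gene. By limma 0% of 11165 genes differed between the lines in this implied length at adjusted p 0.05, with 431 genes at an unadjusted p under 0.05, and 0 of the 9 members at either level. Camk1 was shortest, at -0.67 ± 0.05 (SD, n = 6) in WT libraries, against -0.68 ± 0.03 (SD, n = 5) in RGECO on the log2 scale, and Hdac4 was longest, at 0.72 ± 0.14 (SD, n = 6) in WT against 0.86 ± 0.16 (SD, n = 5). Camk2d, with 11 annotated coding transcripts of 640 to 5524 bases, varied widely, from -0.18 to 0.31 in WT and from -0.43 in RGECO replicate 5 to 0.64 in RGECO replicate 1. The order of libraries for Camk2d therefore depended on the unit. RGECO replicate 1 had 137 CPM and 56.9 TPM, while RGECO replicate 5 had 95.9 CPM and 73.2 TPM.

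Within each line, Camk2d and the deacetylase genes varied in opposite directions from library to library when measured in CPM. Camk2d had 94.3, 122 and 146 CPM as the lowest, median and highest WT libraries and 137, 138, 120, 95.9 and 158 CPM in RGECO replicates 1, 2, 3, 5 and 6. Hdac5 had 144, 174 and 270 CPM in WT and 155, 157, 195, 220 and 137 CPM in the same RGECO libraries. In CPM the library with the most Hdac5 in each line, WT replicate 2 and RGECO replicate 5, had the least Camk2d of its line. In TPM this held in WT only, since RGECO replicate 1 had the least Camk2d in RGECO. Over the 11 libraries, after each line's mean of log2 CPM was subtracted, Pearson's r of Camk2d was -0.91 with Hdac5, -0.82 with Hdac4 and -0.77 with Camk2a (Spearman's rho -0.92, -0.72 and -0.74). Hdac5, Hdac4 and Camk2a varied in the same direction, with r of 0.84 to 0.85 between any 2 of them. By line, r of Camk2d with Hdac5 was -0.88 in WT and -0.98 in RGECO. The other pairs were weaker in RGECO. There r was 0.55 for Camk2a and Hdac4, 0.67 for Camk2a and Hdac5, 0.64 for Hdac4 and Hdac5, -0.64 for Camk2d and Hdac4 and -0.61 for Camk2d and Camk2a, against 0.94, 0.93, 0.92, -0.95 and -0.92 in WT. These are descriptions over libraries that share their scaling, and pairs were singled out after their values were seen. No correlation was computed in TPM. In RGECO replicates 1, 2, 3, 5 and 6 Camk2d was at 56.9, 79.6, 77.8, 73.2 and 83.9 TPM. Hdac5 was at 76.0, 77.6, 93.2, 110 and 68.1 TPM in the same libraries, so the opposite order seen in CPM was not kept in full. WT replicate 2, highest of its line in Hdac4 by CPM, had 34.3 TPM of Hdac4, against 45.5 in WT replicate 1. Camk2g took little part, with r of 0.07 with Hdac5 and -0.19 with Camk2d.

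Part of this variation moved with a measure of the libraries, the share of counts from Malat1, an abundant nuclear noncoding RNA. That share was 0.156% to 0.898% in WT and 0.180% to 0.645% in RGECO. A slope on it was fitted for all 13318 genes beside the line with edgeR's quasi-likelihood test, a test added after the data were seen, and 27.3% of genes passed adjusted p 0.05, 15% rising and 12.3% falling. Of the 9 members 1 rose and 2 fell, a share near that of all genes, so such slopes were not particular to the members. Camk2a, at -0.39 ± 0.18 (SE, adjusted p = 0.121), was not called. Hdac5 fell by 1.18 ± 0.21 (SE) on the log2 scale per percentage point of Malat1 share (adjusted p = 0.00120, and at most 0.0332 when any 1 library was left out or another scaling used). Camk2d rose by 0.82 ± 0.23 (SE, adjusted p = 0.0149), a call lost without WT replicate 2 or RGECO replicate 6 (adjusted p = 0.112 and 0.0554). Hdac4 fell by 0.50 ± 0.18 (SE, adjusted p = 0.0490), a call lost in 8 of 12 refits, those without WT replicates 1, 2, 4, 5 or 6 or RGECO replicates 1, 5 or 6 (adjusted p = 0.0561 to 0.149). Camk2b, at -0.66 ± 0.24 (SE, adjusted p = 0.0531), passed without WT replicate 3 or RGECO replicates 1, 2 or 5 (adjusted p = 0.00207 to 0.0492), and Camkk1, at -0.41 ± 0.62 (SE, adjusted p = 0.658), without RGECO replicate 1 (adjusted p = 0.0304). Without WT replicate 2, which had the lowest Malat1 share, 823 genes passed in place of 3635, and without WT replicate 6, which had the highest, 1952.

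**Figure D4:**
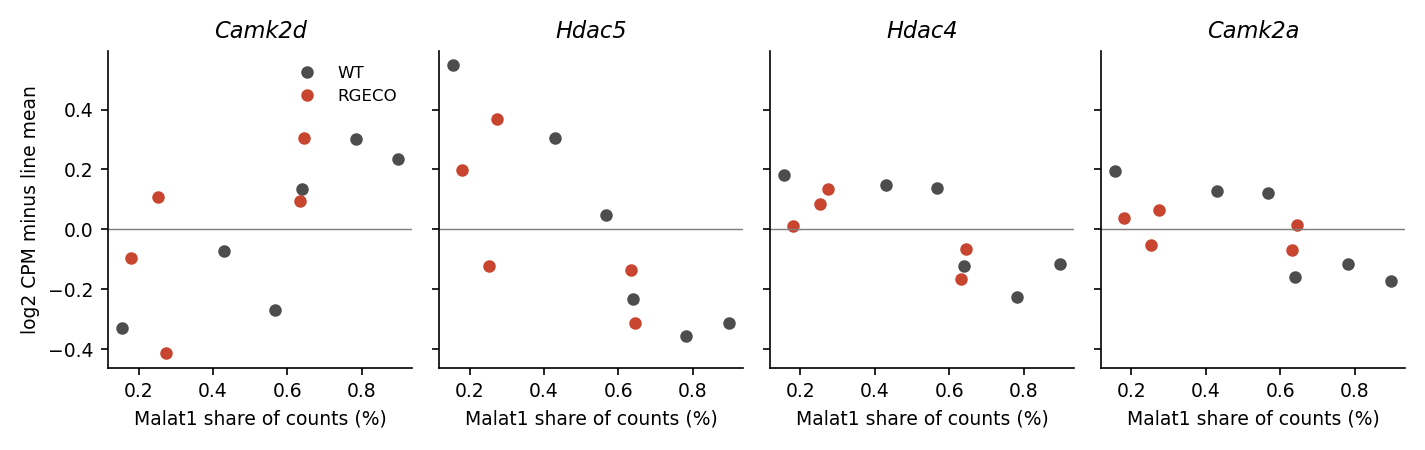
Log2 CPM of 4 genes minus the mean of their line, against the Malat1 share of counts, with 1 point per library. In the 5 libraries with the highest Malat1 share Camk2d is above its line mean and Hdac5 and Hdac4 are below theirs, and so is Camk2a in 4 of the 5.

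Beside the Malat1 share the line difference of Hdac5 became -0.33 ± 0.10 (SE, adjusted p = 0.0319), lower in RGECO, in a fit where 20.8% of all genes passed. That call was lost in 7 of 12 refits, those without WT replicates 1, 2, 3 or 6 or RGECO replicates 2, 3 or 6, each alone (adjusted p = 0.0562 to 0.163). Camk2d stood at 0.26 ± 0.11 (SE, adjusted p = 0.101), and was called at 0.32 only without RGECO replicate 5 (adjusted p = 0.0314). Camk2b was called at -0.28 only without RGECO replicate 1 (adjusted p = 0.0496). Beside the share of mitochondrially encoded counts in place of Malat1, Hdac5 was at -0.28 and Camk2d at 0.25 (adjusted p = 0.0372 and 0.0374). In that fit 3133 of 13318 genes passed, and it was not repeated with single libraries left out. With neither share in the model, none of the refits listed in the closing section called any of the 9 members.

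Of the members called with the Malat1 share, Hdac5 and Camk2d lay far apart in base composition, while Hdac4 lay nearer the middle. The longest coding transcript of Hdac5 had a GC content of 58.8%, above 92.0% of the tested genes, and that of Camk2d 43.9%, under the lower quartile of 45.5%. The other 7 members lay between 51.8% for Camk2g and 56.3% for Camk2b. Among them Hdac4, which was called, had 52.5%, near the median of 50.2% of tested genes. Camk2b, above 81.1% of the tested genes, was not called. Over 11946 tested genes with a coding transcript, 89.7% of all tested, the slope on the Malat1 share had a Spearman's rho of -0.78 with GC content, across genes, which are not independent replicates. Its median was 1.04 per percentage point among genes under the lower quartile of GC and -0.75 among those over the upper quartile of 55.1%. The log2 fold change between the lines had a rho of -0.11 with GC content. The part of base composition in the variation of the members was not tested.

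**Figure D5:**
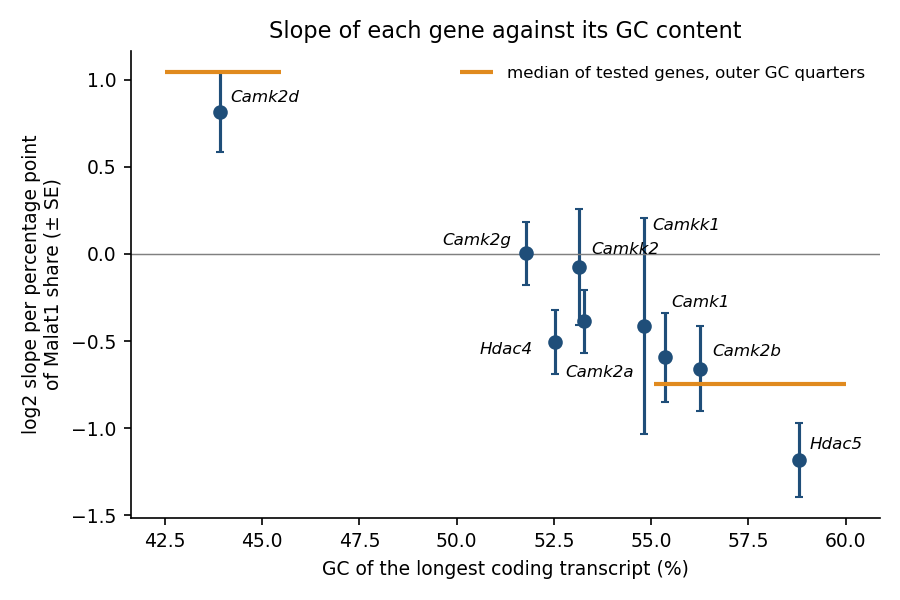
Log2 slope per percentage point of Malat1 share with its SE, against the GC content of the longest coding transcript, for 9 genes. Camk2d lies at the upper left and Hdac5 at the lower right, near or beyond the median slopes of all tested genes under the lower and over the upper quartile of GC (bars).

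The other class IIa genes, which share the 14-3-3 site shown above, did differ between the lines, and in opposite directions. Hdac7 had 70.3, 94.8 and 113 CPM as the lowest, median and highest WT libraries and 53.8, 57.3, 56.8, 67.4 and 48.1 CPM in RGECO replicates 1, 2, 3, 5 and 6. In CPM no RGECO library reached the WT range, and Hdac7 fell by 0.70 ± 0.14 (SE, adjusted p = 0.00480 by edgeR) on the log2 scale. It stayed past the threshold with any 1 library left out and beside the Malat1 share (-0.83, adjusted p = 1.91e-05) but not on log2(TPM + 1) (-0.48, adjusted p = 0.118). In TPM its ranges overlapped, with RGECO replicate 5 at 40.3 and the WT libraries at 31.7 to 47.6. Hdac9 had 16.4, 21.2 and 24.4 CPM in WT and 25.2, 31.1, 28.8, 29.9 and 40.3 CPM in the same RGECO libraries. All 5 were above the WT range in CPM, and Hdac9 rose by 0.60 ± 0.16 (SE, adjusted p = 0.0265). In TPM RGECO replicate 1, at 13.0, lay just below WT replicate 5, at 13.2. The Hdac9 call was lost without WT replicates 1 or 3 or RGECO replicates 2 or 6 (adjusted p = 0.0512, 0.0505, 0.0509 and 0.0684), with all 12 libraries (0.0572) and on log2(TPM + 1) (0.0564). Fits with all 12 libraries, here and below, add RGECO replicate 4, which held 825 counts, so they cannot judge how firm a call is. The longest transcript of Hdac7 had a GC content of 58.9%, over the upper quartile, and that of Hdac9 lay under the lower one. Hdac7 also fell with the Malat1 share, by 0.80 per percentage point (adjusted p = 0.00983), and the part of base composition in the line difference of both genes was not tested.

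Most of the rest of the pathway did not pass the test of the lines. Of 49 listed genes that act with these kinases and deacetylases, 45 could be tested, and 7 rose and 2 fell, beside 3.42% and 4.93% of all genes. The share that rose was thus above that of all genes, and the list was not tested as a set. The median log2 fold change of the 45 genes was 0.02, and 37 of 45 had an interval inside 2-fold. Calmodulin gave 1 of 3 genes, Calm2 at 0.47 (adjusted p = 0.0396, and 0.0520 to 0.0996 without WT replicates 1, 2 or 3 or RGECO replicates 1, 2, 5 or 6, each alone). With all 12 libraries Calm2 was at 0.41 (adjusted p = 0.431), and on log2(TPM + 1) it was at 1.27 (adjusted p = 0.000411), a much larger value. Of 2 tested relatives of Camk1, Camk1d rose by 1.13 ± 0.24 (SE, adjusted p = 0.00783), from 3.10, 4.10 and 6.23 CPM as the lowest, median and highest WT libraries to 12.5, 10.9, 7.97, 5.60 and 10.0 CPM in RGECO replicates 1, 2, 3, 5 and 6. RGECO replicate 5 lay inside the WT range and the other 4 above it. Its call was lost on log2(TPM + 1) (adjusted p = 0.0592), where RGECO replicate 5 had 11.1 TPM, the highest value of the gene, and on log2(TPM + 0.1) it was at 1.83 (adjusted p = 0.0456). Ppm1e, a phosphatase that reverses CaM kinase phosphorylation, rose by 0.94 ± 0.17 (SE, adjusted p = 0.00236), from 6.43, 10.6 and 12.8 CPM to 19.2, 20.0, 17.8, 20.8 and 21.1 CPM, with no overlap. It passed whichever library was left out. The CaMKII inhibitor genes Camk2n1 and Camk2n2 stood at -0.40 and 0.23, with intervals that reached past 2-fold.

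Of 6 genes for 14-3-3 proteins 2 rose, Ywhae by 0.44 and Ywhah by 0.42 (adjusted p = 0.0332 and 0.0356). Ywhae lost its call without WT replicates 1 or 5 or RGECO replicates 1, 2 or 5 (adjusted p = 0.0541 to 0.0735), and Ywhah without WT replicates 1 or 2 or RGECO replicates 1, 5 or 6 (adjusted p = 0.0554 to 0.0854). Both calls were also lost with all 12 libraries (adjusted p = 0.955 and 0.549) and on log2(TPM + 1) (0.0839 and 0.0945), where Ywhae was at 0.23 and 0.77. The call of Ywhah was lost with no filter on low counts as well (adjusted p = 0.0700). None of the other kinases of class IIa deacetylases, Prkd2, Prkd3, Sik1, Sik2 and Sik3, passed, and all 5 had an interval inside 2-fold. The AMP-activated kinase genes Prkaa1 and Prkaa2, encoding substrates of the CaMKK2 enzyme, at 0.14 and -0.26, and the corepressor genes Hdac3 and Ncor1, at -0.22 and -0.04, did not pass either. Among 9 transcription factor genes the MEF2 genes Mef2a at 0.04, Mef2c at -0.14 and Mef2d at 0.20 had intervals inside 2-fold. Mef2b, at 0.787 to 2.90 CPM in WT and 0.418 to 1.82 CPM in RGECO, had a log2 fold change of -0.67 with an interval of -1.72 to 0.39. Srf fell by 0.79 (adjusted p = 0.0260). The Srf call was lost without WT replicates 1 or 3 or RGECO replicates 1, 2, 5 or 6 (adjusted p = 0.0507 to 0.0791) and on log2(TPM + 1) (0.126). Of 9 tested genes under HDAC4 or MEF2 in muscle 1 rose, Ppargc1a, the coactivator of mitochondrial genes, by 0.56 (adjusted p = 0.0386), a call lost without WT replicates 4, 5 or 6 or any 1 of the RGECO libraries (adjusted p = 0.0531 to 0.101), with all 12 libraries (0.142), with no filter on low counts (0.118) and on log2(TPM + 1) (0.0889). Myog at -0.18, Chrna1 at -0.04, Musk at -0.12 and Mb at 0.02 missed the threshold, each with an interval within 2-fold.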

How the data were processed

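Poly(A) RNA from 12 libraries was amplified over 14 PCR cycles and sequenced as paired 50-base reads, per the labels. The authors deposited 2 tables for the whole series, whose names give Salmon as their source: estimated counts per gene, not normalised, and TPM per gene, deposited already corrected for length and depth. The submitters' processing notes also list STAR, BWA 0.7.12-r1039 and bedtools 2.25.0, and the builds mm10, hg19 and GRCm39, without roles. No source used here gives the annotation or whether strand was counted, so reads of antisense partners cannot be told apart.

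Members and lists were chosen with earlier results of these data known. RGECO replicate 4 was left out because it held fewer than 1000000 counts. Estimated counts were rounded and fitted in R 4.3.3 by edgeR 4.0.16 (filterByExpr, TMM, robust quasi-likelihood F test, Benjamini-Hochberg over 13318 genes). Standard errors came from the F statistic. Implied length used genes with at least 10 counts in every library, with limma 3.58.1. DESeq2 1.42.0 and limma on log2(TPM + 1) or log2(TPM + 0.1) were alternatives, and the fits were tested on simulated data. Named genes were the members and the pathway genes past adjusted p 0.05. Other pathway genes were named after their values were seen, to give each role. A library's 3 counts equal 0.252 to 0.510 CPM, a limit for counting error only. The labels name no separate cultures for the replicates, so the spread behind each p-value may be technical.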

Additional observations from a re-analysis of the deposited data

Results flagged for a closer look

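Of 48 groups of values, each 1 quantity in 1 line, 4 held a library whose gap to its neighbour exceeded Dixon's 95% critical value, and chance flags about 1 in 20 groups. Camk2g was at 214 CPM in WT replicate 3, with the other WT libraries at 185 to 193. Camkk1 was at 12.5 CPM in WT replicate 2, with the others at 7.28 to 9.10. Ppm1e was at 6.43 CPM in WT replicate 1, with the others at 10.5 to 12.8. Ppargc1a was at 20.6 CPM in RGECO replicate 2, with the other RGECO libraries at 17.2 to 18.1.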

How the results depend on the processing

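Of 13318 genes, 1112 passed in the fit reported (456 higher and 656 lower in RGECO). With the mitochondrial share as a covariate 3133 passed (1614 and 1519), with the Malat1 share 2771 (1395 and 1376), with limma on log2(TPM + 1) 605 (344 and 261), on log2(TPM + 0.1) 587 (330 and 257) and on log2(TPM + 1) with no filter 258 (140 and 118). The slope on the Malat1 share, its refits and the alternatives for pathway genes were chosen after seeing the data. Leaving out 1 library gave 785 to 1140 genes, 0 to 2 for implied length and 823 to 4474 for the slope on the Malat1 share. The cause was not tested.

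Members with a log2 fold change near 0 changed sign, without passing the threshold. Camk2b was at 0.0056 with RLE factors and 0.0046 with DESeq2. Camk2a was at -0.0043 with no filter, -0.051 with all 12 libraries, -0.041 beside the mitochondrial share and -0.058 beside the Malat1 share. Camk1 was at -0.0064, -0.011, -0.064 and -0.11 in the same fits. Hdac4 was at -0.020 with all 12 libraries, -0.022 beside the mitochondrial share and -0.051 beside the Malat1 share. Leaving out 1 library gave -0.018 to 0.054 for Camk2a, -0.077 to 0.097 for Camk2b and -0.060 to 0.10 for Camk1. Implied length ratios then ranged from -0.016 to 0.045 for Camk2a, -0.20 to 0.067 for Camk2d and -0.00069 to 0.040 for Camkk1. Slopes ranged from -0.12 to 0.12 for Camk2g, -1.34 to 0.15 for Camkk1 and -0.25 to 0.082 for Camkk2, and that of Camk2g was -0.0090 with RLE factors.

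Same-numbered libraries deviated together in 1 of 5 pairs (correlations of -0.0089, -0.15, 0.0074, -0.15 and 0.36), so the numbers were not taken to pair them. The replicate block gave 777 calls and 0 members (edgeR), ended the calls of Camk1d, Ywhae and Ppargc1a (adjusted p = 0.0673, 0.0829 and 0.0864), and put Camk2a at -0.0098, Camk1 at -0.055 and Hdac4 at -0.0033. Camkk1 had 28 to 112 counts per library, and Camk4 had too few counts to be tested.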
